A study of Rattus norvegicus with 2 samples.

Results

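10 p53 target genes were followed by probe in RMT-1 cells, a rat mammary tumour line, after an siRNA against the phospholipase gene Pla2g4c. They are Cdkn1a, Mdm2, Ccng1, Plk2, Plk3, Tigar, Sesn1, Gadd45a, Zmat3 and Ddb2. A member is a gene probe on both arrays whose accession is a current RefSeq transcript of 1 of these rat genes. That rule found 8 of the 10 genes, among 15159 genes with a named probe in all, through 12 of 30367 gene probes. Each of the 12 probes was well above background on both arrays. Cdkn1a, Mdm2, Tigar and Zmat3 had 2 probes each, and Ccng1, Plk2, Plk3 and Gadd45a had 1. No probe was matched to Sesn1 or Ddb2, whose expression is not analysed here.

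The control cells were RMT-1 clone E4 given a negative control siRNA, and the treated cells were the same clone given the Pla2g4c siRNA, so that both groups had been transfected. Cultures were kept in RPMI-1640 with fetal bovine serum, and the labels give neither the dose of siRNA nor the time until harvest. Each group was 1 sample, from 1 line, on 1 one-colour Agilent array. There was therefore no replicate check, no test and no p-value.

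The tumour suppressor p53 is a transcription factor that is held low by the ubiquitin ligase Mdm2 and accumulates after DNA damage and other stress. It then switches on genes that halt the cell cycle, repair DNA, adjust metabolism or start apoptosis. Mdm2 is itself a target, which closes a negative feedback loop. The study's title speaks of apoptosis when Pla2g4c is repressed, and the comparison asked how these targets differed between the siRNA arrays.

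p53 binds a response element made of a pair of decamers that follow the same consensus. Promoter windows from 250 bases before to 50 bases after a transcript start were taken from RefSeq (build GRCr8). It listed 8 of the 10 genes, among them Sesn1, which was not measured, but not Zmat3 or Ddb2. A match to the decamer consensus on either strand lay in 4 of the 8 windows, those of Cdkn1a, Ccng1, Gadd45a and Sesn1. The same search matched 7.98% of all 33469 windows of this length. A match describes letters only, and no binding was measured. The windows of the 3 measured genes with a match are shown so that the matched letters can be read, with that of Plk3, the member with the largest difference, in which this window held none. They lie at chr20:7150682-7150981 (+ strand, Cdkn1a), chr10:25684827-25685126 (- strand, Ccng1), chr4:97486750-97487049 (- strand, Gadd45a) and chr5:135848851-135849150 (- strand, Plk3). Each is written 5′ to 3′ along its gene, and the capitals mark the matched decamer.
Cdkn1a: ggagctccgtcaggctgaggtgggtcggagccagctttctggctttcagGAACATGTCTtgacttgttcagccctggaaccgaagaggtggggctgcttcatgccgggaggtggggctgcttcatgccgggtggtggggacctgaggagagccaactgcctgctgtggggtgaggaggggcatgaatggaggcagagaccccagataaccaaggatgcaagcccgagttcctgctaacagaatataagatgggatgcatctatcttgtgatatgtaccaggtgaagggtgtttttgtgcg
Ccng1: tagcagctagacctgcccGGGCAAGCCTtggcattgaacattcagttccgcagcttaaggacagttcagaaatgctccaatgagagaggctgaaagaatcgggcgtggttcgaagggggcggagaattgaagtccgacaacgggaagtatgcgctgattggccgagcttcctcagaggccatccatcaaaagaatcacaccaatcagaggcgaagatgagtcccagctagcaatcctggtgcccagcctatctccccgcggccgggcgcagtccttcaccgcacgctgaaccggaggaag
Gadd45a: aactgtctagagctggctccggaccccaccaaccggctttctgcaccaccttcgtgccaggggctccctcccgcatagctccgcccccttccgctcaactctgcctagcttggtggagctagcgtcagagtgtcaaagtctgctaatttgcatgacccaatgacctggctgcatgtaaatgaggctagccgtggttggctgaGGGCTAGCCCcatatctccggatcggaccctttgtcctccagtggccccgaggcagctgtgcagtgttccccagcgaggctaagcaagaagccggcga
Plk3: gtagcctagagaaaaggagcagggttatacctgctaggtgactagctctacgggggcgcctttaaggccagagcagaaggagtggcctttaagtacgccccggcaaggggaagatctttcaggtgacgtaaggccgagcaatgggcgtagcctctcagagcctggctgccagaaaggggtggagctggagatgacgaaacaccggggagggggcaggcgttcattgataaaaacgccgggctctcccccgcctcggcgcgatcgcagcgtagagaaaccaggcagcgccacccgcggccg
The matched decamers begin 201 bases before the transcript start in Cdkn1a, 232 in Ccng1 and 48 in Gadd45a. GC content of the 8 windows ran from 56.7% to 69.0%, against a median of 51.7% over all windows. The GC box letters GGGCGG, on either strand, were in 6 of the 8 windows (all but Cdkn1a and Plk3) and in 33.1% of all windows.

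On the arrays 61.9% of gene spots in the control and 63.1% in the Pla2g4c siRNA sample were well above background, and 0 were saturated. The software's coefficient of variation between spots of a probe had a median of 4.22% and 4.38%. Signals below are the processed intensities before scaling. The 75th percentile of these was 852 for the control and 1105 for the Pla2g4c siRNA sample, so a probe at an equal scaled level has a 1.30-fold higher signal on the latter. Differences are on the log2 scale after each array was set to its 75th percentile, Pla2g4c siRNA minus control. The ± combines the scanner software's errors of the 2 arrays. That error stands for technical variation within the arrays and not variation between cultures. It was averaged over the spots of a probe and not reduced for their number. Its median over all measured probes was 0.20, and most member probes lay near that. A mark of 2 errors was thus close to a fixed cut for these. No probe was matched to Pla2g4c, so the knockdown itself was not checked here.

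Of the epithelial markers 7 of 8 were well above background on both arrays, among them Epcam, Cdh1, Krt5 and Krt14. In the immune list Ptprc, Cd3e and Itgam stayed below that mark on each array, while Cd68 (-0.385 ± 0.21) and Lyz2 (0.60 ± 0.34) were measured. Pecam1 and Kdr of the endothelial list also stayed below it, while Cdh5 was measured (-0.40 ± 0.23). The summed scaled level of the epithelial list was 714 in the control and 298 in the Pla2g4c siRNA sample, a sum led by the basal keratins. Single epithelial markers went both ways, with Epcam at 1.03 ± 0.20 and Krt8 at 0.86 ± 0.27 against Krt5 at -1.72 ± 0.20, and 2 of the 7 measured were above 0. The mesenchymal list, with 4 of 6 members measured (1 above 0 and 3 below), summed to 1.18 and 1.05. The immune list, with 2 of 6 members measured, summed to 0.28 and 0.23. Each of these sums took in every probe of its list, also those not well above background. The part of these markers in the results on p53 targets was not tested.

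The members did not all differ in the same direction. Plk3, both probes of Tigar, Gadd45a and both probes of Zmat3 were higher in the Pla2g4c siRNA array by more than 2 software errors. The brighter probes of Tigar (2.04 errors) and Zmat3 (2.01 errors) only just passed that mark. Scaled to the 75th percentile of measured probes they were at 0.393 and 0.385, below 2 errors, and in the deposited values at 0.55 and 0.54. The dimmer probes of Tigar and Zmat3 were at 0.39 and 0.11 under normexp, also below 2 errors. Plk3 (0.75) and Gadd45a (0.53) stayed above that mark under normexp. Mdm2 and Ccng1 differed by less than that error, Plk2 was lower by less than 2 errors, and the 2 probes of Cdkn1a went in opposite directions. In all, 8 of 12 member probes were above 0, against 43.4% of the 16840 measured probes. Their median difference was 0.40, against -0.07 over all measured probes. It was 0.26 under normexp, against -0.13 over all measured probes. With only the brightest probe of each gene it was 0.27, and no median over all genes is given for that choice. At least 2-fold was reached by 1 of 12 probes, a higher one, where 5.59% of all measured probes reached it, 2.28% higher and 3.31% lower. At least 1.5-fold was reached by 3 of 12 higher and 0 lower, against 7.28% and 14.3%. A difference of more than 2 software errors was found for 6 probes that were higher and 1 that was lower, against 12.0% and 20.9% of all measured probes. Probes of 1 gene share their transcript, so the 12 values are not independent. Counted by gene, as the mean of its probes, the members' median was smaller, at 0.31. Over the 9026 measured named genes it was -0.01. All probes were above 0 for 5 of the 8 genes, where 49.0% of the measured named genes had a mean above 0.

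**Figure D1:**
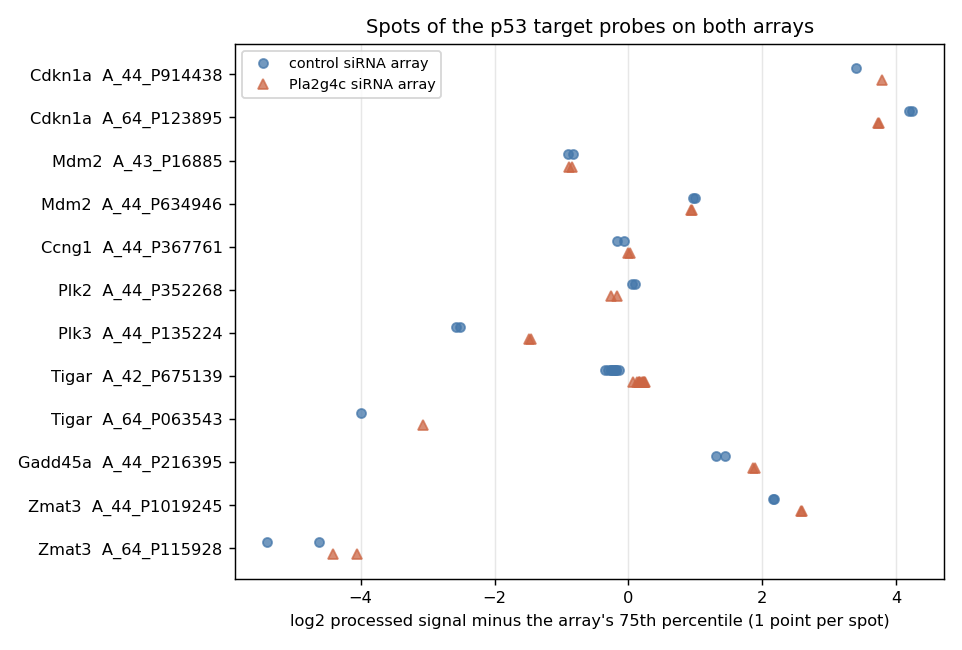
Each point is 1 spot of a p53 target probe, blue circles for the control siRNA array and orange triangles for the Pla2g4c siRNA array, on the log2 scale relative to the array's 75th percentile. Of the 10 probes with several spots, 9 have spots that do not overlap between the arrays, as do 77.5% of all such measured probes. Those of Mdm2 A_43_P16885 overlap. The 2 control spots of Zmat3 A_64_P115928 lie far apart, and levels of different probes are not comparable.

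Among the cell cycle members, Cdkn1a encodes p21, the inhibitor of cyclin-dependent kinases that carries much of the p53 arrest response. Its probe A_64_P123895 gave signals of 15478 and 16062 in the control and 14572 and 14745 in the Pla2g4c siRNA sample. Its other probe, A_44_P914438, with 1 spot per array, gave 8953 and 15174. After scaling the former differed by -0.48 ± 0.20 and the latter by 0.39 ± 0.20. Both probes carry the same accession, NM_080782, and both were bright on both arrays.

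The gap between the Cdkn1a probes was 0.87. Over the 1349 genes with 2 measured probes the median gap was 0.13, and 2.74% had a gap at least as wide as that of Cdkn1a. Probes on opposite sides of 0 were found in 20.5% of these genes, and on opposite sides with such a gap in 1.93%. The mean of the 2 Cdkn1a probes, -0.05, therefore stands for neither of them. The A_64_P123895 probe was at 0.07 under spike-in scaling and below 0 under each other processing, and the A_44_P914438 probe was above 0 under each processing run.

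Gadd45a encodes a stress sensor that takes part in growth arrest and DNA repair. Its spots read 2310 and 2116 on the control array against 4114 and 4007 on the Pla2g4c siRNA array, with no overlap after scaling. The difference was 0.50 ± 0.20, or 1.42-fold. Its difference ranged from 0.48 to 1.05 over the processings, so that it stayed above 0.

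Ccng1 encodes cyclin G1, a target that works with protein phosphatase 2A on Mdm2. Its signals were 758 and 816 in the control and 1102 and 1121 in the Pla2g4c siRNA sample. Most of that went with the brighter array, and the scaled difference of 0.12 ± 0.20 was within its error.

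Plk2 and Plk3 are polo-like kinases of the stress response, both described as p53 targets, and they stood at the lower and the upper side of the list. Plk3 read 149 and 143 in the control and 402 and 395 in the Pla2g4c siRNA sample. Its difference of 1.07 ± 0.21, or 2.10-fold, was the highest of the 12 and exceeded 98.0% of all measured probes. Plk2 read 913 and 879 in the control and 918 and 983 in the Pla2g4c siRNA sample, so its signal did not follow the brighter array. Its scaled difference was -0.29 ± 0.20, within 2 software errors. Under normexp background correction, which adds an offset and compresses dim probes, Plk3 was at 0.75 and no longer at 2-fold, and under spike-in scaling Plk2 was at 0.26.

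**Figure D2:**
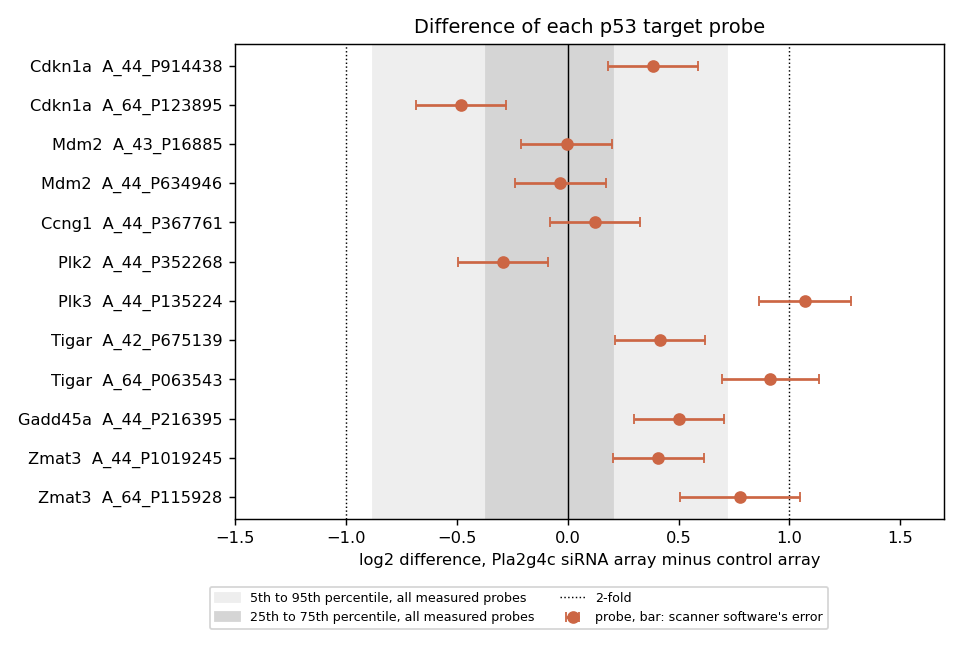
Points give the log2 difference of each p53 target probe (Pla2g4c siRNA minus control) and bars the scanner software's error; the light and dark bands hold the 5th to 95th and the 25th to 75th percentile of all 16840 measured probes. Plk3 at 1.07 lies beyond the dotted 2-fold line, Tigar A_64_P063543 (0.91) and Zmat3 A_64_P115928 (0.78) lie outside the light band, and both Mdm2 probes sit near 0.

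Mdm2, the ligase that marks p53 for degradation, was nearly equal between the arrays by both of its probes. Probe A_44_P634946 gave 1663 and 1687 in the control and 2111 and 2140 in the Pla2g4c siRNA sample. Probe A_43_P16885 gave 456 and 481 against 595 and 617, and its spots overlapped after scaling. The differences were -0.03 ± 0.20 and 0.00 ± 0.20 (a mean of -0.02), and the probes differed from each other by 0.03. Both signs turned with the scaling, to 0.10 and 0.13 in the deposited values and to 0.52 and 0.54 under spike-in scaling.

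Zmat3 encodes a zinc finger RNA-binding protein that is among the conserved p53 targets. Its bright probe, A_44_P1019245, read 3821 and 3856 in the control and 6566 and 6664 in the Pla2g4c siRNA sample, a difference of 0.41 ± 0.20. Its dim probe, A_64_P115928, read 20.3 and 34.4 against 66.5 and 51.9, a difference of 0.78 ± 0.27. Spots did not overlap between the arrays for either probe. For the dim probe the control spots alone differed with an SD of 0.54, and its difference was 0.11 under normexp background correction, where the bright probe was at 0.39.

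Tigar encodes a fructose bisphosphatase that turns glucose use away from glycolysis and towards NADPH. The probe A_42_P675139 was printed as 10 spots per array more than any other member probe. Its signal ran from 669 to 771 with a median of 725 on the control array, and from 1158 to 1306 with a median of 1254 on the Pla2g4c siRNA array. After scaling the SD between spots was 0.06 on each array, no spot of the Pla2g4c siRNA array lay as low as any control spot, and the difference was 0.42 ± 0.20 (1.34-fold). The second probe, A_64_P063543, with 1 spot per array, read 53.6 and 131, a difference of 0.91 ± 0.22. Under normexp background correction the 2 Tigar probes lay close together, at 0.38 and 0.39.

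Of the 10 member probes with more than 1 spot, 9 had spots that did not overlap between the arrays, but so did 77.5% of the 9866 measured probes with several spots. The lack of overlap shows the precision of spots within these 2 arrays. Differences also depended on signal. In 5 equal bins of mean signal the median difference of all measured probes was -0.11, 0.00, 0.00, -0.02 and -0.25 from the dimmest to the brightest. The brightest bin held both Cdkn1a probes and the bright Zmat3 probe. Set against their bin's median these stood at 0.63 (A_44_P914438), -0.24 (A_64_P123895) and 0.66.

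**Figure D3:**
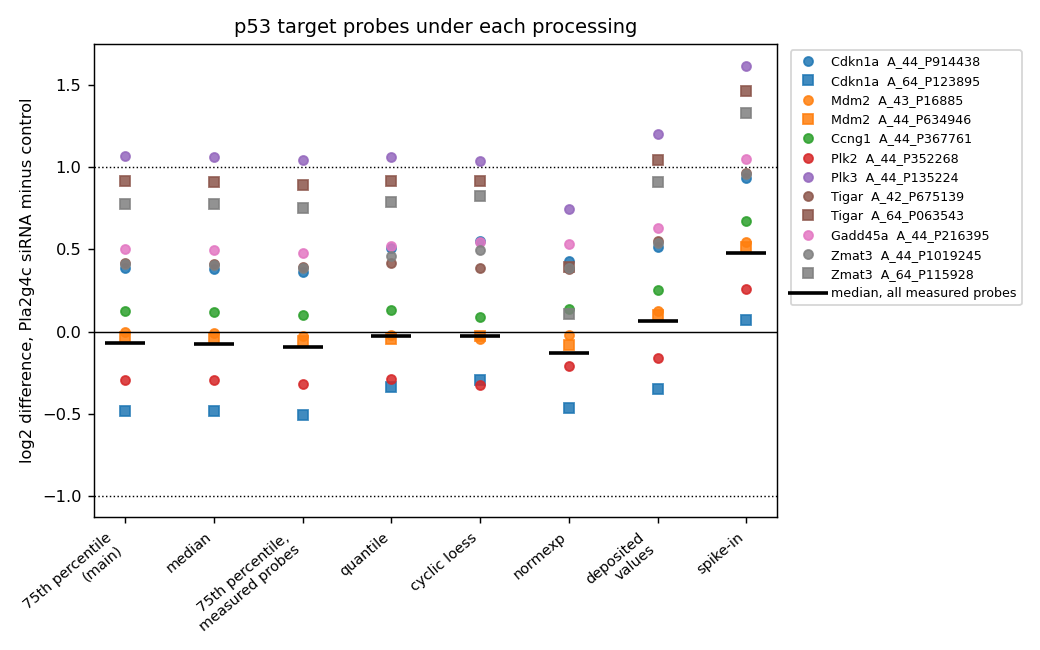
The log2 difference of each of the 12 member probes (coloured points, 1 colour per gene) and the median of all measured probes (black bars) under 8 ways of processing. Under spike-in scaling the probes and the median of all probes shift up together, by 0.55, and all 12 lie above 0; under normexp the dim probes of Tigar and Zmat3 drop.

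All signs are relative to the bulk of the probes. Scaling to 7 spike-in RNAs moved the median of all measured probes up by 0.55 and the deposited values moved it up by 0.13. Member probes above 0 then numbered 12 of 12, where 84.2% of all measured probes were above 0, and 10 of 12, where 55.9% were. The distance of the members' median from the median of all probes was 0.47 under the main scaling and 0.39 under normexp. It was also 0.47 in the deposited values and under spike-in scaling. Both of these shift every probe alike, so the distance could not change there. Calls of at least 2-fold among all probes were 40.8% in the higher direction under the main scaling, 58.5% in the deposited values and 93.1% under spike-in scaling.

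A wider list of 73 p53 pathway genes other than the members had 55 measured genes, with a median of 0.03 against -0.01 over the 9026 measured named genes. Of these 55, 28 were above 0, where 49.0% of all measured named genes were. At least 2-fold was reached by 3 of them, against 5.96%, with 1 higher against 2.91% and 2 lower against 3.05%. In the deposited values 2 were higher, Acer2 and Apaf1 (1.02), and 0 lower. For 13 listed genes no probe was matched. Besides p53 targets the list held regulators of p53 and other polo-like kinases. Genes with several measured probes enter here with the mean of these.

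Among the regulators of p53 9 of 12 genes were measured, 3 above 0 and 6 below, and 0 reached 2-fold. Chek2, a checkpoint kinase that phosphorylates p53, was highest at 0.38 ± 0.21. Mdm4, the relative of Mdm2 that binds p53 and blocks it, was lowest at -0.22 ± 0.21, and at 0.33 under spike-in scaling.

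In cell cycle arrest 11 of 13 genes were measured, 6 of them above 0. Btg2, an antiproliferative cofactor, was highest at 0.61 ± 0.20. Gadd45g, a relative of Gadd45a, read a mean of 1264 in the control and 762 in the Pla2g4c siRNA sample. Its difference of -1.11 ± 0.20 was opposite in sign to the 0.50 of Gadd45a, and it stayed below 0 under each processing, though short of 2-fold in the deposited values (-0.98) and with spike-in scaling (-0.56).

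In apoptosis 14 of 19 genes were measured, 8 of them above 0, with a median of 0.07. Apaf1, the scaffold of the apoptosome, was highest at 0.89 ± 0.21, with its 2 probes at 0.78 and 0.999. Perp, a tetraspan protein of desmosomes, was lowest at -1.003 ± 0.20 with mean signals of 83559 and 54086. Perp was at -0.51 under quantile normalization and -0.67 under cyclic loess, and it was short of 2-fold also in the deposited values (-0.87) and under spike-in scaling (-0.45). The BH3 genes gave 0.55 ± 0.24 for Pmaip1 (Noxa) and -0.01 ± 0.20 for Bbc3 (Puma), and Bax was at 0.11 ± 0.20. These 3 are named after their values were seen.

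In DNA repair 5 of 8 genes were measured, from Fancc (-0.19 ± 0.21, and 0.36 under spike-in scaling) to Xpc, a damage recognition factor of nucleotide excision repair (0.59 ± 0.21). In metabolism and antioxidant defence 6 of 9 were measured. Acer2, a Golgi ceramidase, read mean signals of 48.2 and 322 in 2 spots of its 1 measured probe, a difference of 2.37 ± 0.22 or 5.17-fold, and 1.44 under normexp. Sesn3, a relative of the unmatched Sesn1, was lowest at -0.77 ± 0.20. Among other targets, with 8 of 9 measured, Cd82, a tetraspanin, was at 0.55 ± 0.20 and Thbs1, a matrix glycoprotein, at -0.57 ± 0.28. Of the other polo-like kinases Plk1, the mitotic member, was at 0.15 ± 0.20 and Plk5 at 0.35 ± 0.21, so that Plk3 alone of the 4 measured polo-like kinases reached 2-fold here.

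**Figure D4:**
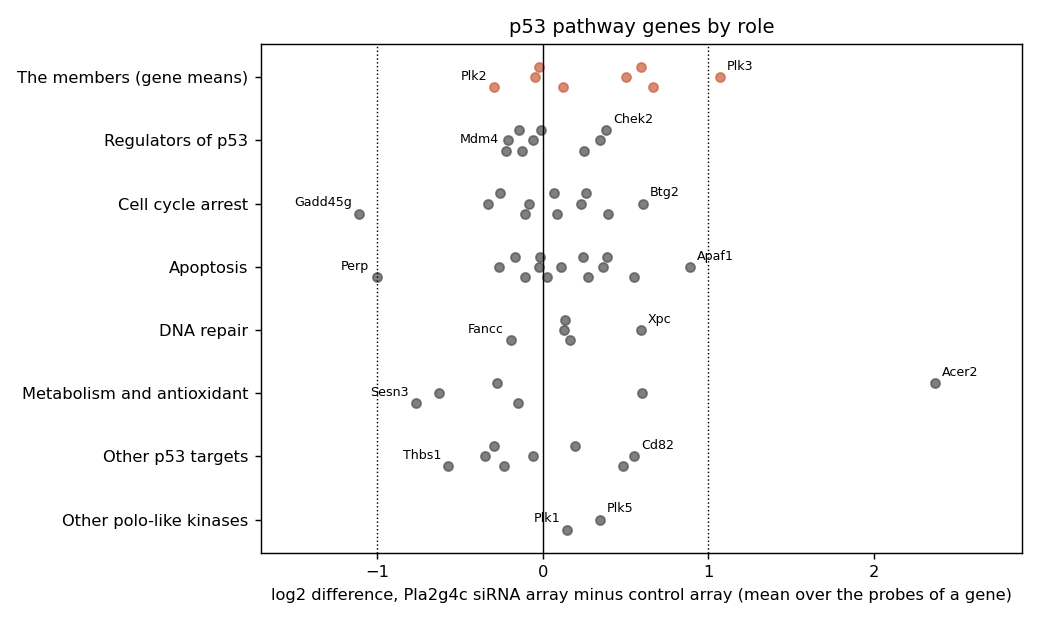
The log2 difference (Pla2g4c siRNA minus control, mean over the probes of a gene) of the 8 measured members, in orange, and of the 55 measured genes of the wider p53 list, in grey, by role; the highest and lowest gene of each role are named. Dotted lines mark 2-fold, which Plk3 and Acer2 exceeded upward and Gadd45g and Perp downward.

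p21 also represses mitotic genes through the DREAM complex, and 11 of 14 such genes were measured. Their median was -0.15, against -0.01 over all measured named genes. Of the 11 genes 4 were above 0, where 49.0% of all measured named genes were, and 0 reached 2-fold, where 5.96% did. They ranged from Cenpf, a kinetochore protein (-0.67), to Ccna2, cyclin A2 (0.44). Plk1 (0.15) was counted both here and in the wider p53 list. Under spike-in scaling the median of the DREAM list was 0.40. The median of all measured probes, -0.07 under the main scaling, was then 0.48. No median over the named genes was computed under spike-in scaling.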

How the data were processed

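RNA of 2 RMT-1 samples was measured on 1 array each. The authors' scanner files hold Cy3 spot intensity on a linear scale. Per the file headers they come from Agilent's software Feature Extraction, version 10.10.1.1 (the submitters' processing notes give 10.10), and are background-subtracted and detrended within an array but not scaled between arrays. A deposited table of normalized intensity equals these values times 1.775 (control) and 1.4988 (Pla2g4c siRNA), as computed from the files; the labels do not say how the constants were set. The 0 or 1 flags were used as deposited.

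Outlier-flagged spots of either array were dropped, log2 processed signal was set relative to the 75th percentile of the gene spots of its array, and spots of a probe were averaged. A probe was measured where every spot kept was well above background on both arrays (16840 of 30367). RefSeq accessions named 18006 probes (59.3%). The 2-fold count, and the alternatives in the closing section, used Python 3.11.15 (numpy 2.4.6, pandas 2.3.3, matplotlib 3.10.9) and R 4.3.3 with limma 3.58.1. Steps were tested on simulated data. From the wider list the text names genes at 2-fold and the extremes of each role, besides 3 apoptosis genes chosen after their values were seen, and 2 genes of it are not reported here. Members and lists were chosen with earlier results of these data known. Precision is limited by the number of arrays.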

Additional observations from a re-analysis of the deposited data

How the results depend on the processing

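Besides the main processing, 12 alternatives were run. The count of member probes at least 2-fold, 1 in the main processing, was 0 under normexp (2.86% of all measured probes), 2 in the deposited values (5.45%), 4 under spike-in scaling (12.0%), 3 at a 1.5-fold (21.6%) and 0 at a 3-fold threshold (1.53%). Spike-in scaling gave medians of 0.95 for the member probes, 0.58 for the wider p53 list and 0.40 for the DREAM list, as it moved all probes. The wider list count, 3 in the main processing (1 higher, 2 lower), was 8 under spike-in scaling, all higher (13.9% of all measured named genes), 9 at 1.5-fold (19.0%) and 1 at 3-fold (1.66%). It was 2 under quantile normalization (5.91%) and cyclic loess (5.95%), without Perp, and 2 in the deposited values (6.19%), both higher. For single probes and genes 200 of 234 values moved by less than 1 software error and 34 by more, and of the probes or genes at least 2-fold none changed sign. Many of the 200 could hardly have moved. Median scaling, the 75th percentile of measured probes and the deposited values shift every probe alike, by -0.005, -0.024 and 0.13. Each shift is less than any such error. Spike-in scaling also shifts every probe alike, by 0.55, which is more than any such error. Each of its values was thus bound to be among the 34. Keeping flagged spots changed none of these values, and letting in dim probes changed only that of Acer2. The cause of the shifts under normexp was not tested. Probes near background (Zmat3 A_64_P115928, Tigar A_64_P063543, Acer2) had the widest ranges. No paired analysis was possible because each group has 1 array, and for the same reason no replicate could be left out.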
